A study of Arabidopsis thaliana with 6 samples.

Results

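Fibrillins are plastid proteins that bind lipids. Transcript levels of 10 Arabidopsis thaliana fibrillin genes, FBN1a to FBN7b, are described here in seedlings of the phytochrome A mutant phyA-1 and of the wild type. The 10 genes are entries of a deposited table of 33557 genes, and all 10 are among its 22892 tested genes. They were chosen by family name, with their FPKM values and their calls in this same comparison already known, so the calls below describe the deposited table and support nothing beyond it. The family has 14 members in the nomenclature used here, and the other 4, FBN8 to FBN11, are given for comparison.

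Both genotypes are in the Landsberg erecta accession (Ler). Seedlings of phyA-1, which carries a mutant allele of the phytochrome A gene, were set against wild-type seedlings. Each genotype had 3 libraries of polyadenylated RNA, described as independent biological replicates. All seedlings, the wild type included, were raised for 4 days without light before 3 hours under far-red. No library from dark-kept seedlings was analysed here, so a difference that existed before the light cannot be told apart from one that arose in it. Phytochrome A is the photoreceptor of continuous far-red light, and the comparison shows which transcript levels differ between the genotypes after the 3 hours. The fibrillin genes are nuclear, and none of the 10 lies on chromosome 1, which carries PHYA.

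Fibrillins carry a transit peptide into the plastid and a lipocalin-like fold that can hold small hydrophobic molecules. Some coat plastoglobules, the lipid droplets on thylakoid margins that store plastoquinone, tocopherol and carotenoids, while others are found on thylakoids or in the stroma. In etioplasts plastoglobules lie beside the prolamellar body, and the thylakoids form from that body once the seedling greens.

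Levels are the authors' pooled FPKM, fragments scaled by transcript length and by the number mapped, with 1 value per genotype. No value per library was available, so no level carries an SD, and read depth is unknown. With that scaling, levels may be compared between genes. Ratios are given as log2((FPKM + 1) ratio) of phyA-1 over wild type, where the pseudocount of 1 makes changes of weakly expressed genes look smaller. A gene was called, and is said to have risen or fallen in phyA-1, where the q-value in the authors' deposited table was 0.05 or below. Seedlings are mixtures of organs, and in such bulk RNA fewer cells of a type cannot be told apart from less RNA per cell.

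Of the 10 fibrillin genes, 7 fell in phyA-1 and 3 were not called. None rose, and none had an unadjusted p under 0.05 with a higher level in phyA-1. Over all tested genes in the authors' deposited table, 17.2% were called, 8.54% lower and 8.61% higher in phyA-1. Among the 14031 tested genes whose mean level lay within the range of the members, 9.94% were called lower. Since the members were named with these calls known, nothing is read from the difference between the shares. The median log2 ratio of the 10 genes was -0.51, against 0.05 for all tested genes. The largest fall was that of FBN6 (-1.26) and the highest ratio that of FBN7a (0.21).

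**Figure D1:**
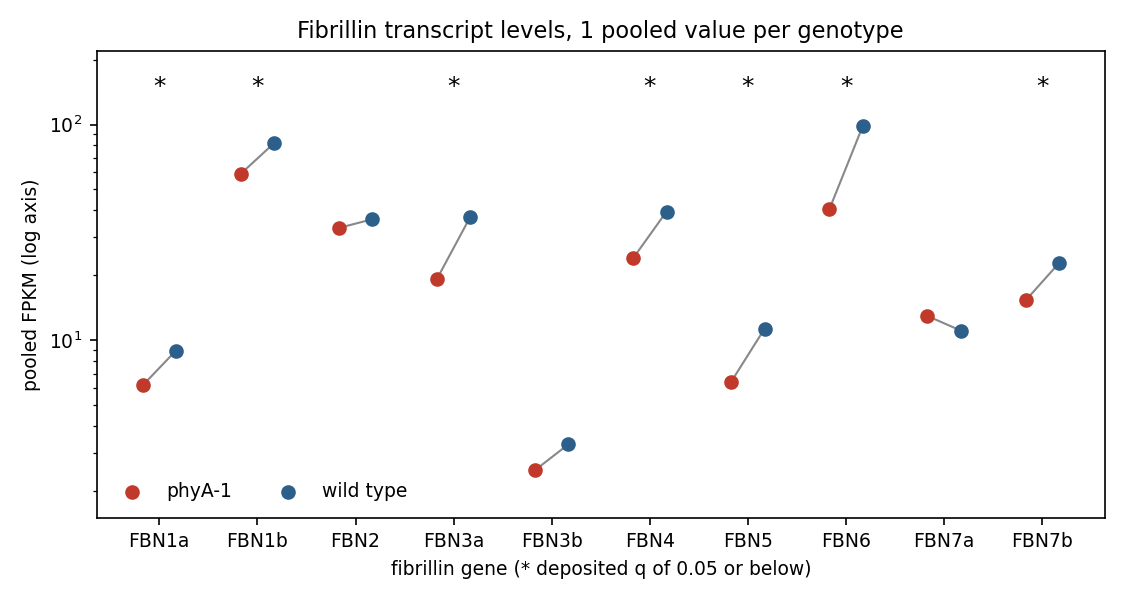
Pooled FPKM (log axis) of the 10 fibrillin genes in phyA-1 (left point of each pair) and wild type (right point), with a star over genes whose deposited q-value is 0.05 or below. Each point is 1 pooled value with no error bar. The phyA-1 point lies below the wild-type point in 9 pairs, and FBN7a is the exception.

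Summed over the 10 genes, the level was 219 FPKM in phyA-1 against 351 FPKM in wild type, so phyA-1 had 62.5% of the wild-type sum. The median member stood at 17.3 FPKM in phyA-1 against 29.6 FPKM in wild type. The median of all tested genes was 8.75 FPKM in phyA-1 against 8.71 FPKM in wild type, and 8 of the 10 fibrillins had a mean level above the middle of that distribution. FBN6 accounted for 43.9% of the difference in the sum. Without FBN6 the sum was 179 FPKM in phyA-1 against 253 FPKM in wild type.

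**Figure D2:**
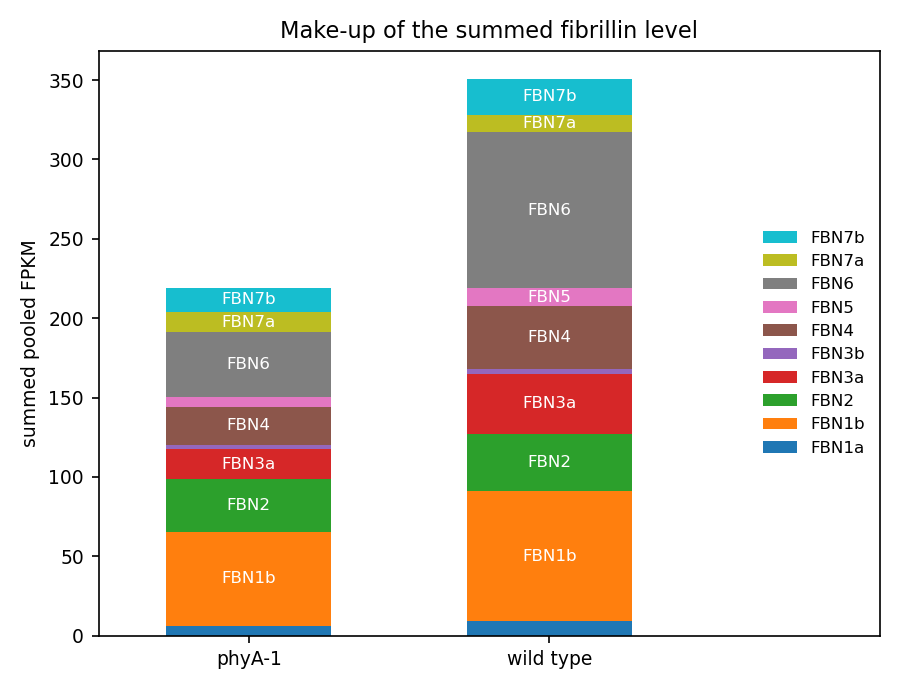
Summed pooled FPKM of the 10 fibrillin genes in phyA-1 (left bar) and wild type (right bar), stacked by gene. The phyA-1 bar reaches 219 FPKM and the wild-type bar 351 FPKM, and the FBN6 segment differs most, at 40.5 FPKM in phyA-1 against 98.3 FPKM in wild type.

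The order of levels differed at the top. In phyA-1 FBN1b came first at 59.1 FPKM, followed by FBN6, FBN2, FBN4, FBN3a, FBN7b, FBN7a, FBN5, FBN1a and, at 2.50 FPKM, FBN3b. In wild type FBN6 came first at 98.3 FPKM, followed by FBN1b, FBN4, FBN3a, FBN2, FBN7b, FBN5, FBN7a, FBN1a and, at 3.29 FPKM, FBN3b. Whether neighbours in these orders differ could not be judged without a spread between replicates. FBN4, FBN3a and FBN2 stood close together in wild type, between 36.4 and 39.5 FPKM, while in phyA-1 the same 3 genes ran from 19.2 to 33.2 FPKM. FBN6 held 18.5% of the summed level in phyA-1 against 28.02% in wild type, and FBN2, which was not called, held 15.1% in phyA-1 and 10.4% in wild type.

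The thylakoid fibrillins are FBN3a, FBN3b and FBN6. Their summed level was 62.2 FPKM in phyA-1 against 139 FPKM in wild type, and 2 of the 3 fell. FBN6 (AT5G19940, chromosome 5, locus 6739624 to 6743773 in the deposited table) is needed for normal acclimation of photosynthesis to strong light. It had 40.5 FPKM in phyA-1 against 98.3 FPKM in wild type, and the authors' deposited table gives q = 0.00045. Of all tested genes, 1.90% had a lower ratio than FBN6.

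The locus of FBN6 is shared in the deposited table with AT5G19950, which makes its level less certain. In the RefSeq annotation of TAIR10.1 the gene proper spans bases 6739624 to 6740957 on the plus strand, and its end overlaps AT5G19950 on the opposite strand by 181 bases. Whether the libraries keep strand is not stated in the labels. AT5G19950, a tudor domain gene, had 8.58 FPKM in phyA-1 against 8.15 FPKM in wild type and was not called (q = 0.923 by the authors' deposited table). On the other side, the divergent gene AT5G19930 leaves 50 bases between the 2 RefSeq models. AT5G19930 had 23.4 FPKM in phyA-1 against 20.4 FPKM in wild type and was not called either (q = 0.398 by the authors' deposited table). FBN6 was thus the called gene of the 3 that adjoin here.

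FBN3a and FBN3b lie in tandem on chromosome 3, with 70 bases in the RefSeq annotation between the end of FBN3a and the start of FBN3b. Their proteins are 88.4% identical over 232 aligned residues. FBN3a (AT3G26070, chromosome 3, 9526714 to 9528583) had 19.2 FPKM in phyA-1 against 37.3 FPKM in wild type, a log2 ratio of -0.92 for which the authors' deposited table gives q = 0.00045. FBN3b (AT3G26080, chromosome 3, 9528774 to 9530496) had 2.50 FPKM in phyA-1 against 3.29 FPKM in wild type, a log2 ratio of -0.30, and was not called (q = 0.281 by the authors' deposited table). FBN3a therefore stood 7.70 times as high as FBN3b in phyA-1 and 11.3 times as high in wild type. Their longest identical stretch of transcript is 44 bases, and how reads that match both copies were assigned is not stated. FBN3b is the member with the lowest level, and the difference between the ratios of the pair was not tested.

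The upstream stretches of FBN6, the gene with the largest fall, of the tandem pair and of FBN4, a called gene with no neighbour in the window, are shown here. Each runs 5′ to 3′ on the strand of its gene and ends at the base before the RefSeq start, and it is shorter where another annotated gene comes nearer. The sequences are from the RefSeq genome of TAIR10.1, which is the Columbia accession and not Landsberg erecta. Coordinates are chr5:6739574-6739623 (plus) for FBN6, chr3:9526502-9526686 (plus) for FBN3a, chr3:9528704-9528773 (plus) for FBN3b and chr3:8378365-8378614 (minus) for FBN4. Capitals mark matches to the 7 motifs described next.
FBN6: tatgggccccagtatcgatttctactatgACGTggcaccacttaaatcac
FBN3a: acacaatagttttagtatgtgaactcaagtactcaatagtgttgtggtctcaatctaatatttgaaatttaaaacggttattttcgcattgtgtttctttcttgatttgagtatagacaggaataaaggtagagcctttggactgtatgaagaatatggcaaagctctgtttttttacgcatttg
FBN3b: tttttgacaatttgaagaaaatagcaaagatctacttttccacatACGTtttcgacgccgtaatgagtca
FBN4: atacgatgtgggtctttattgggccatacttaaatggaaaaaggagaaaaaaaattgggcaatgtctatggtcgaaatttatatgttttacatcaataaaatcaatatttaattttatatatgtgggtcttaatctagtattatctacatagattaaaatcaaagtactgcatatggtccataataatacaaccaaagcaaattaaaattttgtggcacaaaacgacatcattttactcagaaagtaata

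Motifs were searched on both strands in the 250 bases upstream of each RefSeq start, with the same window of 27437 protein-coding genes as background. The G-box (CACGTG), bound by bZIP and bHLH factors of light signalling, was found in 1 of the 10 fibrillin windows, that of FBN1b, and in 6.49% of all windows. It begins 232 bases before the start, inside the neighbouring gene AT4G22250, since 32 bases lie free before FBN1b. The PBE-box (CACATG), bound by PIF factors, was in none of the 10 and in 11.1% of all. The site of FHY3 (CACGCGC), a transposase-derived factor of the phytochrome A pathway, was in none of the 10 and in 1.06% of all. The I-box (GATAAG) was in the window of FBN2 and in 12.3% of all, the GT1 element (GGTTAA) in none and in 14.6% of all, and the evening element of the clock (AAAATATCT) in the window of FBN1a and in 2.36% of all. The I-box begins 95 bases before FBN2, inside the neighbouring gene SKL2, which leaves 42 bases free.

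The 4-letter core ACGT, which bZIP factors such as HY5 contact and which every G-box contains, was added after the sequences had been seen. It occurs in 4 of the 10 windows, those of FBN1a, FBN1b, FBN3b and FBN6, and in 44.1% of all windows. The matches of FBN1b again lie inside AT4G22250. In FBN6 it begins 21 bases before the start, within the 50 bases that separate the gene from AT5G19930. The best local alignment of the stretches of FBN3a and FBN3b printed above covers 38 bases with 76.3% identity. In that alignment the bases lie 49 to 12 before the start of FBN3a and 69 to 32 before that of FBN3b. A match describes letters only, and binding was not measured in the data used here. FBN3a, FBN4, FBN5 and FBN7b fell with none of the 7 motifs in their windows, and FBN7a, which was not called, had none either. The share of all windows with none of the 7 was not computed, so nothing is read from this. The stretch up to the neighbouring gene is 24 bases for FBN5 and 0 for FBN7b.

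**Figure D3:**
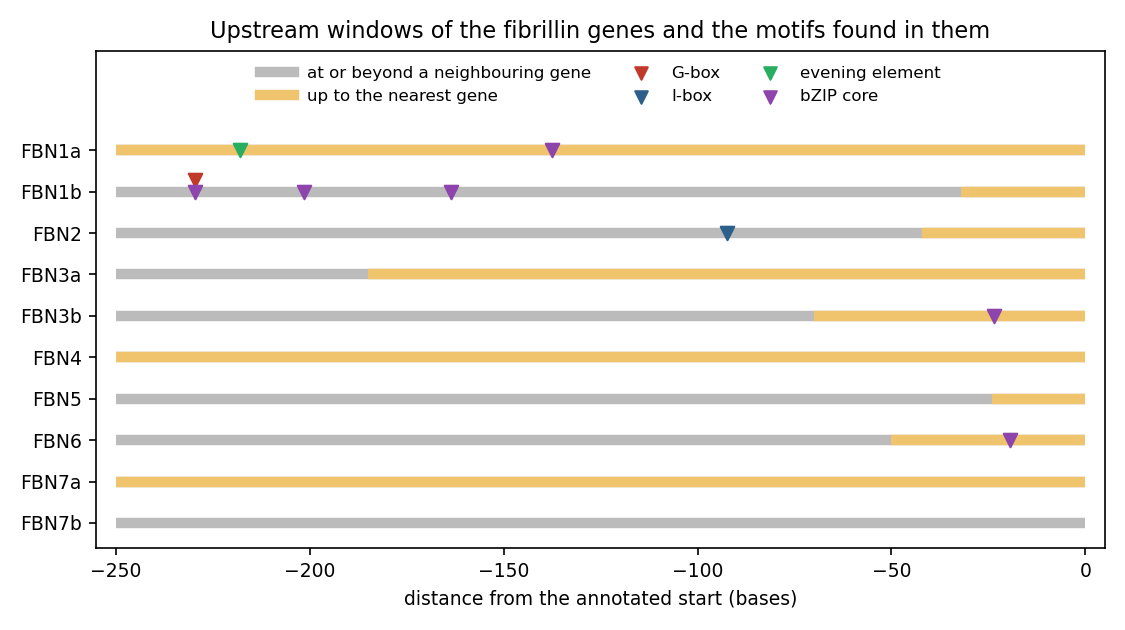
The 250 bases upstream of the 10 fibrillin genes, by distance from the annotated start (x axis, bases), with the stretch up to the nearest annotated gene in yellow and the rest in grey, and triangles at motif matches. Neighbouring genes come within 70 bases of the start in 6 genes (FBN1b, FBN2, FBN3b, FBN5, FBN6 and FBN7b), and matches are found in 5 of the 10 windows, in 3 of them (FBN1a, FBN3b and FBN6) within the yellow stretch.

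FBN5, a stromal fibrillin, binds the solanesyl diphosphate synthases that make the side chain of plastoquinone and is needed for plastoquinone to accumulate. FBN5 (AT5G09820, chromosome 5, 3055779 to 3057447) fell, with 6.42 FPKM in phyA-1 against 11.3 FPKM in wild type, a log2 ratio of -0.73 for which the authors' deposited table gives q = 0.00045. Its partner genes SPS1 and SPS2 also fell. SPS1 had 7.53 FPKM in phyA-1 against 31.3 FPKM in wild type (log2 ratio -1.92), and SPS2 had 10.3 FPKM in phyA-1 against 29.4 FPKM in wild type (-1.43). The ratios of both partners were lower than that of FBN5, and that difference was not tested.

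Among the 6 plastoglobule fibrillins, FBN1a, FBN1b, FBN4 and FBN7b fell, and FBN2 and FBN7a were not called. Their summed level was 151 FPKM in phyA-1 against 201 FPKM in wild type. FBN4 (AT3G23400, symbol FIB4, chromosome 3, 8376444 to 8378305), without which plastoglobules hold less plastoquinone, had 24.0 FPKM in phyA-1 against 39.5 FPKM in wild type. Its log2 ratio was -0.70, and the authors' deposited table gives q = 0.00045.

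FBN1a, FBN1b and FBN2 are the classical plastoglobulins, linked to jasmonate production and to protection of photosystem II under light and cold stress. FBN1b (AT4G22240, chromosome 4, 11765803 to 11767304) had 59.1 FPKM in phyA-1 against 82.0 FPKM in wild type (log2 ratio -0.47, q = 0.0072 by the authors' deposited table). FBN1a (AT4G04020, symbol FIB, also PGL35, chromosome 4, 1932144 to 1933950) had 6.17 FPKM in phyA-1 against 8.95 FPKM in wild type (log2 ratio -0.47, q = 0.0202 by the authors' deposited table). FBN1a is the called member with the highest q-value, and it was lost at a threshold of 0.01. Their proteins are 80.4% identical over 306 residues, and the longest identical stretch of transcript is 38 bases. FBN1b stood 9.58 times as high as FBN1a in phyA-1 and 9.16 times as high in wild type, and the difference between the ratios of the 2 copies was not tested. FBN2 (AT2G35490, chromosome 2, 14912144 to 14913877), an acidic relative 47.0% identical to FBN1a, had 33.2 FPKM in phyA-1 against 36.4 FPKM in wild type, and the authors' deposited table gives q = 0.568.

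The 2 copies of FBN7, also plastoglobule proteins, had ratios of opposite sign. FBN7b (AT2G42130, chromosome 2, 17566185 to 17568144) fell, with 15.3 FPKM in phyA-1 against 22.8 FPKM in wild type, a log2 ratio of -0.54 for which the authors' deposited table gives q = 0.0047. FBN7a (AT3G58010, symbol PGL34, chromosome 3, 21475805 to 21477569) had 12.95 FPKM in phyA-1 against 11.1 FPKM in wild type and was not called (log2 ratio 0.21, q = 0.387 by the authors' deposited table). FBN7b stood 1.18 times as high as FBN7a in phyA-1 and 2.05 times as high in wild type. The proteins are 77.6% identical over 295 residues and the transcripts share at most 25 identical bases in a row. The difference between the ratios of the 2 copies was not tested. In the RefSeq annotation the start of FBN7b overlaps that of POLD2, on the opposite strand, by 224 bases. By the deposited coordinates the 2 genes do not overlap, since POLD2 ends at 17566032 and FBN7b begins at 17566185. POLD2 had 4.78 FPKM in phyA-1 against 5.05 FPKM in wild type and was not called (q = 0.824 by the authors' deposited table).

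**Figure D4:**
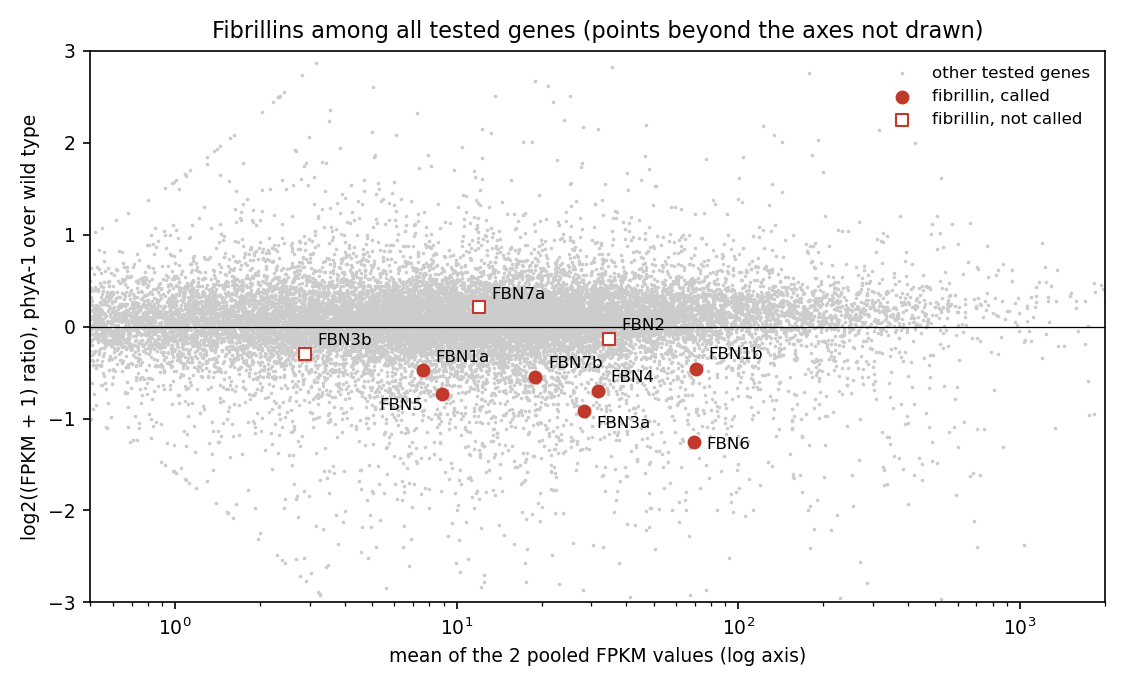
Mean of the 2 pooled FPKM values (x axis, log) against the log2((FPKM + 1) ratio) of phyA-1 over wild type (y axis), with tested genes in grey, called fibrillins as filled circles and fibrillins not called as open squares. The 7 called fibrillins lie between -1.26 and -0.47, at mean levels of 7.56 to 70.6 FPKM, and FBN3b is the member with the lowest mean, 2.89 FPKM.

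The genes called lower covered a wide range of levels. The 2 genes with the highest means, FBN1b at 70.6 FPKM and FBN6 at 69.4 FPKM, had log2 ratios of -0.47 and -1.26. In all, 7 members had a ratio below that of 90% of tested genes, with 1.90% of tested genes lower than FBN6, 3.35% lower than FBN3a and 8.30% lower than FBN1b. FBN2 and FBN3b lay nearer the middle, with 24.2% and 13.4% of tested genes lower, and 73.1% were lower than FBN7a.

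By translation of the longest RefSeq coding sequence, the precursors of the 10 genes have 239 (FBN6) to 376 (FBN2) residues. The 3 thylakoid proteins have basic predicted isoelectric points, 9.71 for FBN3a, 9.41 for FBN3b and 9.49 for FBN6. The other 7 members are acidic, between 4.45 for FBN2 and 6.10 for FBN7b. A basic value is not particular to the thylakoid members, since it is 8.35 for FBN8, 9.35 for FBN9, 8.10 for FBN10 and 9.43 for FBN11. These values include the transit peptide. Outside the 3 pairs of copies, no 2 of the 14 fibrillins exceeded 47.0% protein identity or shared more than 20 identical transcript bases in a row.

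The remaining 4 fibrillin genes had ratios below 0, and 2 of them fell. FBN8 (AT2G46910, locus shared with AT2G46915) had 14.2 FPKM in phyA-1 against 22.2 FPKM in wild type (log2 ratio -0.61, q = 0.0139 by the authors' deposited table). FBN10 (AT1G51110) had 5.39 FPKM in phyA-1 against 8.96 FPKM in wild type (-0.64, q = 0.0022 by the authors' deposited table). FBN9 (AT4G00030) had 11.6 FPKM in phyA-1 against 13.3 FPKM in wild type and was not called. FBN11 (AT5G53450, symbol ORG1), which joins a kinase domain to the fibrillin domain, had 16.4 FPKM in phyA-1 against 18.8 FPKM in wild type and was not called. Over all 14 fibrillins 9 fell, none rose and 13 had a ratio below 0. Of all tested genes, 8.54% fell and 41.0% had a ratio below 0.

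Genes for other plastoglobule proteins, a list of 20, fell in 14 cases, and 6 were not called, with a median log2 ratio of -0.79. None rose, also at an unadjusted p under 0.05. The share called lower over all tested genes was 8.54%. This list, too, was drawn up with earlier results of these data known, so nothing is read from that difference. The aldo/keto reductase gene AT1G06690 had 7.89 FPKM in phyA-1 against 27.1 FPKM in wild type (-1.66). The kinase gene ABC1K6 (AT3G24190) had 10.6 FPKM in phyA-1 against 34.2 FPKM in wild type (-1.59). AT2G34460, a gene for an NAD(P)-binding protein, and ABC1K7 (AT3G07700) followed with log2 ratios of -1.37 and -1.30. The loci of ABC1K6, AT2G34460 and ABC1K7 are shared with other genes. In all, 6 of the 14 called genes share a locus, and 8 are called without them.

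The list of plastoquinone synthesis genes had 4 called lower of 6, with a median log2 ratio of -0.54. Besides SPS1 and SPS2 these were GPS1 (log2 ratio -0.57), a prenyl diphosphate synthase gene, and VTE3 (-0.52, locus shared), whose methyltransferase also serves tocopherol. Whether the product of GPS1 serves plastoquinone is not shown by these data, and the count and median of the list include it. Genes that shape thylakoid membranes fell in 3 of 7 cases, with a median of -0.32. These were CURT1B (-0.92) and CURT1C (-0.82), which bend the membrane at grana margins, and THF1 (-0.56, locus shared), which is needed for thylakoid formation. CURT1A, CURT1D, VIPP1 and FZL were not called. None of the genes of either list rose, also at an unadjusted p under 0.05. Both lists were likewise drawn up with earlier results known, and 8.54% of all tested genes were called lower.

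**Figure D5:**
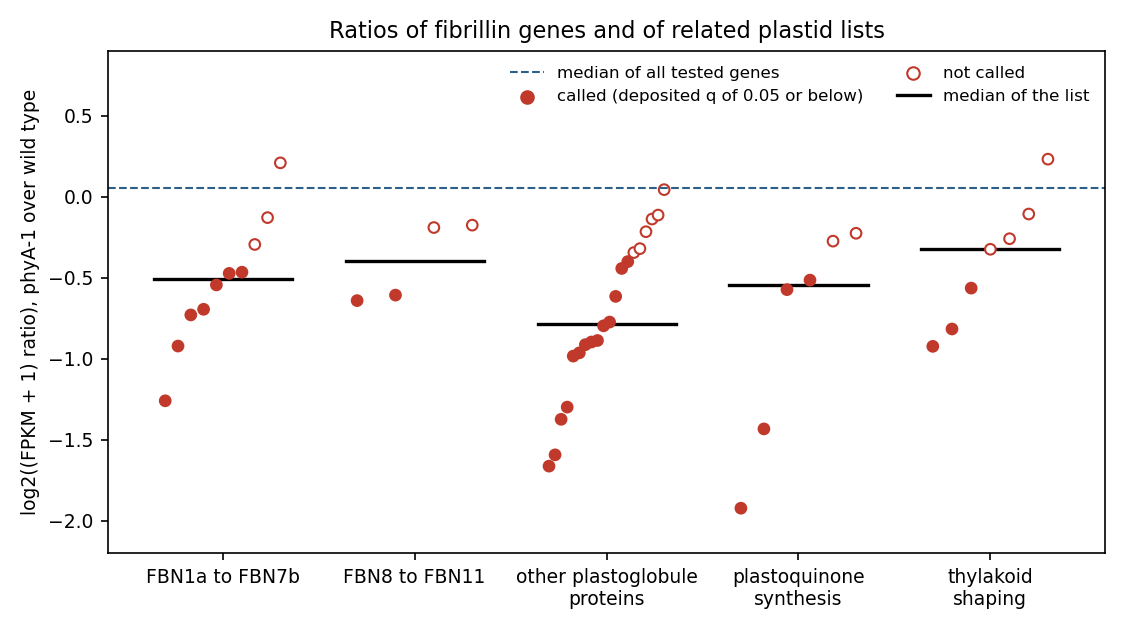
Log2((FPKM + 1) ratio) of phyA-1 over wild type for single genes (points; filled where called) of FBN1a to FBN7b, FBN8 to FBN11 and 3 related lists, with the median of each list (black bar) and of all tested genes (dashed line). The list medians are -0.51, -0.40, -0.79, -0.54 and -0.32 from left to right, all below the dashed line at 0.05.

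PHYA itself had 16.0 FPKM in phyA-1 against 167 FPKM in wild type in the authors' deposited table, in the direction its label gives. Markers of parts of the seedling were read as a check of the tissue, and none of the 14 is listed at 0. Of 4 root markers EXPA18 rose and 3 were not called, with summed levels of 52.5 FPKM in phyA-1 against 42.7 FPKM in wild type. Of 6 shoot and cotyledon markers LHCB3 and CA1 fell and 4 were not called, with sums of 5721 FPKM in phyA-1 against 8604 FPKM in wild type. RBCS1A, a photosynthesis gene like LHCB3 and CA1 that was not called, made up most of both sums, at 4466 FPKM in phyA-1 against 5991 FPKM in wild type. Without RBCS1A the sums were 1255 FPKM in phyA-1 against 2613 FPKM in wild type. Of these, LHCB3, whose locus is shared, had 259 FPKM in phyA-1 against 1119 FPKM in wild type. The epidermal markers ATML1 and PDF1 and the phloem marker SUC2 were not called, with log2 ratios of -0.28, -0.28 and 0.11. Of 4 seed markers CRA1 and CRU3 rose and 2 were not called, with sums of 33.7 FPKM in phyA-1 against 10.8 FPKM in wild type. The part of these differences in the fibrillin levels was not tested.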

How the data were processed

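RNA of 6 libraries, 3 of phyA-1 and 3 of wild type, was measured by sequencing. One table, the authors' comparison of the genotypes, was used. The submitters' processing notes name Bowtie and the build TAIR10. For the levels and the test no tool was given in the sources used here. The authors deposited 1 FPKM value per gene and genotype, pooled over libraries, and a log2 ratio with wild type on top, which was recomputed here as log2((FPKM + 1) ratio) of phyA-1 over wild type. They also deposited a p-value, whose lowest value is 5e-05, and a q-value. Lacking a header, columns were read by the genotype names in each line and by their values, and the deposited ratio equals the log2 of its FPKM columns. No test was run here: a call is a deposited q-value of 0.05 or below in any of the 22892 tested genes. How the test used the 3 libraries of a genotype is unknown, as is their depth. How the q-value was computed is also unknown. By it 3926 tested genes were called, against 3550 with a Benjamini-Hochberg adjustment of the deposited p-values, so it is the more lenient. A Benjamini-Hochberg adjustment of the deposited p-values, with a function tested on simulated data, was one alternative. The others were a q-value of 0.01, a minimum mean of 5 FPKM, a minimum log2 ratio of 0.5, pseudocounts of 0.1 and 5, centred ratios, and leaving out shared loci.

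Table coordinates are TAIR10, written 1-based. Gene models, upstream sequences and translations are from RefSeq on TAIR10.1, and 99.997% of 28626 genes alone at their locus overlapped their RefSeq interval. The same start or the same end was given in both for 52.0% of them. Upstream windows and motif distances depend on the RefSeq start. For FBN1a it is 1931883, against 1932144 by the deposited coordinates. For FBN7a, on the minus strand, it is 21478187 against 21477569. Protein identity was computed by global alignment, with gaps at the ends not penalised, in Biopython 1.88 (Python 3.11.15). The upstream stretches of FBN3a and FBN3b were aligned locally, which picks the segment that scores best. The members, the lists, the motifs and the rule for named genes (all fibrillins, up to 4 called genes per list by size of ratio, and PHYA) were chosen with earlier results of these data known. The symbols FBN1a to FBN11 follow common usage, and genes were matched by locus identifier.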

Additional observations from a re-analysis of the deposited data

How the results depend on the processing

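The count of 7 fibrillin genes lower in phyA-1 was 6 at a q-value of 0.01 (without FBN1a), 7 with Benjamini-Hochberg adjustment, 7 with a mean of at least 5 FPKM, 5 with a log2 ratio of at least 0.5 in size (without FBN1a and FBN1b) and 6 without shared loci (without FBN6). The count of higher genes was 0 under each of these 5 alternatives. Each of them is stricter for these genes than the main call, so none could have added a gene to either count. The share of 8.54% of all tested genes called lower belongs to the main threshold and was not recomputed for the alternatives. The single ratios kept their sign in all 40 combinations of 10 genes with 4 other pseudocounts or centrings. A pseudocount cannot change a sign, and both centrings subtract a positive median, so only FBN7a could have changed under them. Its log2 ratio was 0.15 when centred on all tested genes and 0.14 on genes at 5 FPKM or more in each genotype. The median log2 ratio of -0.51 was -0.55 with a pseudocount of 0.1, -0.45 with 5, -0.56 when centred on all tested genes, -0.58 when centred on genes at 5 FPKM or more in each genotype, -0.47 without FBN6, whose locus is shared, and -0.54 at a mean of at least 5 FPKM. For the other fibrillins, 2 called lower became 1 at a q-value of 0.01 and 1 without shared loci. The 14 plastoglobule genes called lower became 8 without shared loci, since 6 of them share one, and 13 with Benjamini-Hochberg adjustment. Alternatives on the other lists and on neighbouring genes, and the counts without shared loci, were added after the data were seen.

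No paired analysis was possible because the table holds 1 pooled value per genotype, although the labels number the libraries of both genotypes alike. For the same reason leaving out each replicate in turn was not run. With depth unknown, no precision can be given for FBN3b or other weakly expressed genes beyond the deposited p-value, and 4 members share its lowest value.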

Other observations

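The nearest tested gene on each side of each fibrillin gene was also read, passing over untested genes, so it need not adjoin the member. The 18 such genes that are not fibrillins included 3 called lower and 3 called higher in phyA-1. Of all tested genes, 8.54% were called lower and 8.61% higher. PRXQ (AT3G26060), a plastid peroxiredoxin gene upstream of FBN3a, had 160.8 FPKM in phyA-1 and 218 FPKM in wild type and fell (log2 ratio -0.43), so it, FBN3a and FBN3b have ratios of -0.43, -0.92 and -0.30 in chromosomal order. SKL2 beside FBN2 fell (-0.52), while FBN2 itself was not called. FAO3 beside FBN4 fell as well (-0.69), with 3.55 FPKM in phyA-1 and 6.35 FPKM in wild type. The 3 that rose were AT4G22235 beside FBN1b (0.61), AT5G09830 beside FBN5 (0.40) and AT3G58020 beside FBN7a (0.42). AT5G09830 and AT3G58020 passed narrowly, with q = 0.0447 and q = 0.0499 in the authors' deposited table. At a q-value of 0.01 or with Benjamini-Hochberg adjustment 1 of the 3, AT4G22235, is called. PRXQ is also lost at 0.01, which leaves 2 neighbours called lower.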
